A study of Mus musculus with 12 samples.

Results

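The genes described here are 10 genes of iron handling, chosen by symbol for iron storage, uptake, export and heme breakdown: Fth1, Ftl1, Tfrc, Trf, Slc11a2, Slc11a1, Steap3, Slc40a1, Cp and Hmox1. The choice was made with earlier results of these data known. All 10 were among the 16482 genes of the count table, and 9 of them were among the 12623 genes with enough counts to be tested; Steap3 was not. RNA came from whole brains of C57BL/6 mice in 12 bulk MARS-seq libraries, in which reads come from near the 3' end of a transcript. The 3 groups of 4 libraries were mice given phosphate-buffered saline (PBS), mice given conduritol B epoxide (CBE), and mice given CBE together with GZ-667161. CBE inactivates glucocerebrosidase, the lysosomal enzyme that is deficient in Gaucher disease, and GZ-667161 lowers the making of its substrate by inhibiting glucosylceramide synthase. The PBS and CBE+GZ-667161 libraries (replicates 2 to 5) were of postnatal day 40, and the CBE group held replicates 2 and 3 of day 34 and replicates 4 and 6 of day 40. CBE is a model by drug inhibition and not by mutation, no PBS library of day 34 was among the samples, and no group received GZ-667161 alone. Whether each library is 1 mouse of its own is not in the labels; the p-values therefore rest on the spread among these samples, some of which may be technical.

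Iron enters brain cells bound to transferrin (Trf) through the transferrin receptor (Tfrc), is reduced by ferrireductases such as Steap3 and crosses the endosome membrane through Slc11a2. Surplus iron is stored in ferritin, a shell of heavy (Fth1) and light (Ftl1) chains, or leaves through ferroportin (Slc40a1) with the help of the ferroxidase ceruloplasmin (Cp), which astrocytes carry on their surface. Iron regulatory proteins, encoded by Aco1 and Ireb2, bind hairpins called iron-responsive elements: in a 5' untranslated region binding blocks translation, and in the 3' untranslated region of Tfrc it stabilises the RNA. Slc11a1 moves metal ions out of the phagosomes of microglia and macrophages, and Hmox1 frees iron from heme. RNA was measured here and protein was not, so control of translation by these elements would not appear in the values.

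The elements shown are those that matched a fixed pattern, so they do not fully divide the genes by mode of control. They were searched as a hairpin of 29 bases with an unpaired C, 5 paired bases above it, a loop CAGTGN and at least 4 of 6 paired bases below, on the sense strand of the transcripts of GENCODE vM21 (GRCm38, which is mm10). The lines give each DNA-letter sequence 5′ to 3′ on the strand of the gene, with the loop in capitals.
Fth1, 5' untranslated region, chr19:9982732-9982760, plus strand: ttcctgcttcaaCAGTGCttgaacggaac
Ftl1, 5' untranslated region, chr7:45459779-45459807, minus strand: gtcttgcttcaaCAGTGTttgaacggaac
Slc40a1, 5' untranslated region, chr1:45925465-45925493, minus strand: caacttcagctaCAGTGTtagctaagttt
Tfrc, 3' untranslated region, chr16:32631219-32631247, plus strand: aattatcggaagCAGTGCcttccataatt
Tfrc, 3' untranslated region, chr16:32631598-32631626, plus strand: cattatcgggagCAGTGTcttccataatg
Tfrc, 3' untranslated region, chr16:32631663-32631691, plus strand: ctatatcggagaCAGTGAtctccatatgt
Tfrc, 3' untranslated region, chr16:32631710-32631738, plus strand: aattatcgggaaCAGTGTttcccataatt

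The Fth1 and Ftl1 elements were identical at 26 of 29 bases, whereas the Slc40a1 element was identical to each of them at 13. The 4 Tfrc elements were identical to each other at 18 to 25 bases. Of 21877 protein-coding genes searched in this way, 6 (0.0274%) held the pattern in a 5' untranslated region and 17 (0.0777%) in a 3' untranslated region. The 6 other genes, Slc11a2 among them, had no match to these letters, which says nothing of elements that depart from the pattern. RefSeq promoters (GRCm38.p6, windows of equal length that lie mostly upstream of a transcript start) were listed for 6 of the 10 genes, namely Fth1, Ftl1, Tfrc, Slc11a1, Steap3 and Cp. On both strands, the cores of the antioxidant response element (TGACNNNGC and TGATNNNGC), and of a STAT site (TTCNNNGAA), the interferon-stimulated response element and the E-box CACGTG were not in these windows. This says nothing of sites that lie outside the windows or depart from these letters. The hypoxia response core ACGTG, which lies within the E-box, was found in Tfrc. It was present in 19.6% of 32851 promoters, and the others in 12.4%, 8.09%, 8.3%, 3.44% and 7.15%.

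Library totals ran from 1758446 to 6521257 counts, and the day 34 CBE libraries had the lowest. Levels below are CPM, counts scaled to a common library size with TMM factors. Markers of brain cells were present in every library, and no marker of the lists used was at 0 in all libraries of a treatment group. Summed microglial markers (12 genes) ran from 984 to 1090 CPM in PBS, from 3690 to 5510 in CBE and from 2250 to 3930 in CBE+GZ-667161, and 10 of the 12 passed the test as higher in each of the treated groups against PBS. Neuronal markers (10 genes) summed to 7060 to 7240, 5210 to 6190 and 5940 to 7000 CPM in the same order, with 6 of 10 lower in CBE than in PBS. Erythroid markers (7 genes in the table) summed to 2100 to 4180, 1390 to 1860 and 1540 to 4040 CPM, with 1 of 6 tested lower in CBE than in PBS. The part of these shifts in the levels below was not tested. Xist, a transcript of female cells, was at 0 to 0.555 CPM in the CBE libraries. It was at 0.265, 0.213, 7.96 and 18.3 CPM in PBS replicates 2 to 5. In CBE+GZ-667161 replicates 2 to 5 it was at 25.7, 13.9, 0.419 and 11.1 CPM. By this measure the groups differed in their makeup by sex. Sex and treatment can therefore not be fully told apart, least of all between the CBE groups. In bulk tissue, fewer or more cells of a type and less or more RNA per cell cannot be told apart.

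With CBE against PBS, 5 of the 9 tested genes rose and none fell by edgeR's quasi-likelihood test (Benjamini-Hochberg adjusted p under 0.05). They were both ferritin chains, Slc11a1, Cp and Hmox1. Over all tested genes 6.95% were called higher and 4.04% lower. The median log2 fold change of the 9 genes was 0.655, beside -0.0149 over all genes. With CBE+GZ-667161 against PBS, 3 of 9 rose (Ftl1, Slc11a1 and Hmox1) and none fell, beside 3.11% of all genes called higher and 0.333% lower, and the medians were 0.263 and -0.00024. With CBE+GZ-667161 against CBE, 1 of 9 fell (Cp) and none rose, beside 0.832% of all genes called lower and 0.444% higher, and the medians were -0.251 and 0.00802. The comparisons share libraries, since each group enters a pair of them. Because the genes were chosen with earlier results of these data known, the counts and medians describe the genes and do not test them as a set. The genes of uptake through transferrin (Tfrc, Trf, Slc11a2) and the exporter Slc40a1 passed in none of the 3 comparisons.

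**Figure D1:**
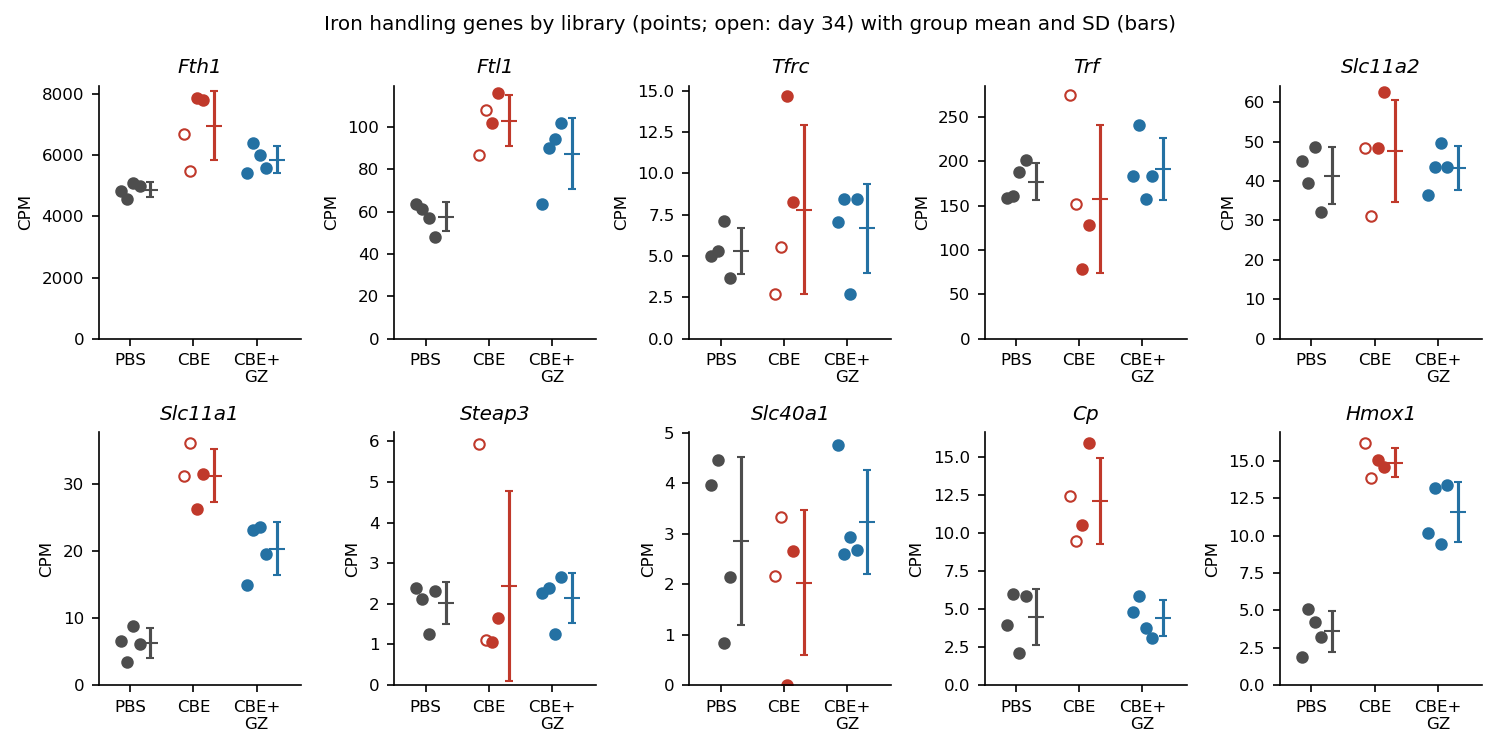
Level of each of the 10 genes (CPM) in every library of PBS, CBE and CBE+GZ-667161 (abbreviated CBE+GZ), with open points for day 34 and bars for the group mean and SD (n = 4); each vertical axis starts at 0. Slc11a1, Hmox1, Cp and both ferritin genes stand above PBS in all 4 CBE libraries, and Cp in CBE+GZ-667161 lies among the PBS libraries.

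RNA of both ferritin chains was higher with CBE than with PBS. Fth1 (chromosome 19, 9980598 to 9985098, plus strand, mm10), which encodes the chain that oxidises iron for storage, was at 4850, 4560, 5110 and 5000 CPM in PBS replicates 2 to 5, at 6700 and 5490 in the day 34 and 7870 and 7830 in the day 40 CBE replicates, and at 5420, 6400, 6020 and 5600 in CBE+GZ-667161 replicates 2 to 5. All 8 treated libraries lay above every PBS library, and the day 40 CBE libraries above all others. The group means were 4880 ± 236 (SD, n = 4), 6970 ± 1130 and 5860 ± 437 CPM. Fth1 was 1.43-fold higher with CBE than with PBS, with a log2 fold change of 0.51 ± 0.112 (SE) and an adjusted p of 0.0059 (edgeR). Without the day 40 libraries the difference was 0.34 with an adjusted p of 0.13. With CBE+GZ-667161 the log2 fold change was 0.26 ± 0.111 against PBS (adjusted p = 0.3, edgeR) and -0.25 ± 0.111 against CBE (95% interval -0.49 to -0.02, adjusted p = 0.27). Without the day 34 libraries the last of these was -0.42 with an adjusted p of 0.036.

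Ftl1 (chromosome 7, 45457944 to 45459884, minus strand), the light chain that supports the mineral core, was at 63.8, 61.1, 57.0 and 48.1 CPM in PBS, at 86.8, 108, 102 and 116 in CBE (day 34 first) and at 63.4, 90.1, 94.2 and 102 in CBE+GZ-667161. The CBE libraries did not overlap PBS, whereas CBE+GZ-667161 replicate 2 lay within the PBS range and the other 3 above it. The means were 57.5 ± 6.82, 103 ± 12.2 and 87.4 ± 16.8 CPM. The rise with CBE was 1.8-fold (log2 0.85 ± 0.152, adjusted p = 0.0013, edgeR) and passed in 23 of 23 alternative settings. The rise with CBE+GZ-667161 against PBS was 1.52-fold (log2 0.60 ± 0.151, adjusted p = 0.032), and the difference from CBE was -0.24 ± 0.15 (95% interval -0.56 to 0.07, adjusted p = 0.44). The call against PBS was lost without PBS replicate 3 (adjusted p = 0.054), 4 (0.1) or 5 (0.12) and without CBE+GZ-667161 replicate 3 (0.088), 4 (0.1) or 5 (0.12). It was also lost when only those groups were fitted (0.051). A search by name found 2 annotated pseudogenes for Ftl1, Ftl1-ps2 and Ftl2-ps, and 0 for Fth1. Copies under other names were not searched for. The sources used here do not state how shared reads were counted, so the levels of both chains are uncertain to an unknown extent.

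The balance of the chains was followed as Ftl1 counts per 100 Fth1 counts, which is a ratio of tags and not of molecules. It was 1.31, 1.34, 1.12 and 0.962 in PBS, 1.29, 1.96, 1.29 and 1.48 in CBE, and 1.17, 1.41, 1.57 and 1.82 in CBE+GZ-667161. The groups overlapped. An exact two-sided permutation test on the log ratio gave p = 0.171 for CBE against PBS, 0.114 for CBE+GZ-667161 against PBS and 0.971 between the CBE groups (n = 4 each, smallest possible p 0.0286).

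Among the uptake genes, the proteins that carry transferrin-bound iron did not pass. Tfrc (chromosome 16, 32608920 to 32632794, plus strand) ran from 3.69 to 7.12 CPM in PBS, from 2.69 to 14.7 in CBE and from 2.72 to 8.46 in CBE+GZ-667161, with all groups overlapping. Its log2 fold change with CBE was 0.65 ± 0.441 (95% interval -0.28 to 1.59, adjusted p = 0.39, edgeR), and over the alternative settings it ran from -0.30 to 1.15, so that no direction can be read. Slc11a2 (chromosome 15, 100387898 to 100425072, minus strand), the transporter that releases iron from endosomes, was at 41.4 ± 7.2, 47.6 ± 12.9 and 43.3 ± 5.5 CPM in PBS, CBE and CBE+GZ-667161 (n = 4 each). Its log2 fold change with CBE was 0.23 ± 0.189 (95% interval -0.17 to 0.63, adjusted p = 0.49, edgeR).

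Trf (chromosome 9, 103204001 to 103230444, minus strand), which oligodendrocytes make in the brain, ran from 159 to 202 CPM over the 4 PBS libraries, and was at 275 and 152 in the day 34 and 78.4 and 128 in the day 40 CBE libraries, and at 184, 241, 158 and 184 in CBE+GZ-667161. CBE held both the highest and the lowest library of all, and both of its day 40 libraries lay below every other library. The log2 fold change of CBE against PBS was -0.17 ± 0.258 (adjusted p = 0.73, edgeR) with all libraries. Without the day 34 libraries Trf fell against PBS by 0.78 on the log2 scale (adjusted p = 0.023), and CBE+GZ-667161 was higher than CBE by 0.89 (adjusted p = 0.029). Within CBE, day 40 differed from day 34 by -1.07 ± 0.275 (95% interval -1.65 to -0.48, adjusted p = 0.087, edgeR; 0.014 with DESeq2). Summed markers of mature oligodendrocytes (12 genes) were at 6380 and 3140 CPM in the day 34 and 4440 and 4830 CPM in the day 40 CBE libraries. They were at 6080 to 7570 CPM in PBS and at 3840 to 8850 CPM in CBE+GZ-667161. Of these 12 markers, 2 were lower in CBE than in PBS, and 2 were higher in CBE+GZ-667161 than in CBE. Their part in the Trf values was not tested. Gm20425 overlaps Trf on the same strand over its 3' end, with 20, 17 and 20 counts in the 3 groups.

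Steap3 (chromosome 1, 120190757 to 120272705, minus strand), a ferrireductase of endosomes, had 37 counts over the PBS, 21 over the CBE and 33 over the CBE+GZ-667161 libraries. Pooled over a group this was 2.13 (95% exact Poisson interval 1.5 to 2.94), 2.2 (1.36 to 3.37) and 2.06 (1.42 to 2.89) CPM. These intervals cover counting error only, and they overlapped. Differences within them were not detectable at this depth. In CBE, replicate 2 of day 34 held 11 of the 21 counts (5.93 CPM), and replicates 3, 4 and 6 were at 1.11, 1.05 and 1.66 CPM. Libraries ran from 1.26 to 2.38 CPM in PBS and from 1.26 to 2.67 CPM in CBE+GZ-667161.

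Slc11a1 (chromosome 1, 74375195 to 74386062, plus strand), the metal transporter of phagocytes, showed the highest fold change of the 9 tested genes in both comparisons with PBS. C57BL/6 mice carry a loss-of-function allele of this gene. It was at 6.61, 3.40, 8.80 and 6.15 CPM in PBS, at 31.3, 36.1, 26.3 and 31.5 in CBE, and at 15, 23.2, 23.6 and 19.6 in CBE+GZ-667161. The 3 groups did not overlap, with CBE highest and PBS lowest. The rise was 5.14-fold with CBE (log2 2.36 ± 0.247, adjusted p = 5.4e-06, edgeR) and 3.37-fold with CBE+GZ-667161 (log2 1.75 ± 0.244, adjusted p = 0.00021), and both passed in every alternative setting run. Between the CBE groups the log2 difference was -0.61 ± 0.221 (95% interval -1.08 to -0.14). It did not pass over all genes (adjusted p = 0.18), nor in any of 23 alternatives (0.12 to 0.4). In the authors' deposited table, Slc11a1 had a log2 fold change of -2.37 for PBS over CBE (adjusted p = 1.5e-16) and of 0.61 for CBE over CBE+GZ-667161 (adjusted p = 0.17).

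Hmox1 (chromosome 8, 75093621 to 75100589, plus strand), the inducible enzyme that breaks heme into iron, biliverdin and carbon monoxide, was at 1.85, 5.11, 4.19 and 3.23 CPM in PBS. It was at 16.2, 13.9, 15.1 and 14.6 CPM in CBE and at 10.2, 13.2, 9.42 and 13.4 CPM in CBE+GZ-667161. The CBE libraries lay closely together, CBE+GZ-667161 lay just below them without overlap, and PBS lay below both. Hmox1 rose 4.14-fold with CBE (log2 2.05 ± 0.278, adjusted p = 8.9e-05, edgeR) and 3.18-fold with CBE+GZ-667161 (log2 1.67 ± 0.274, adjusted p = 0.001), each in all alternative settings run. The CBE groups differed by -0.38 ± 0.251 (95% interval -0.91 to 0.15, adjusted p = 0.48).

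**Figure D2:**
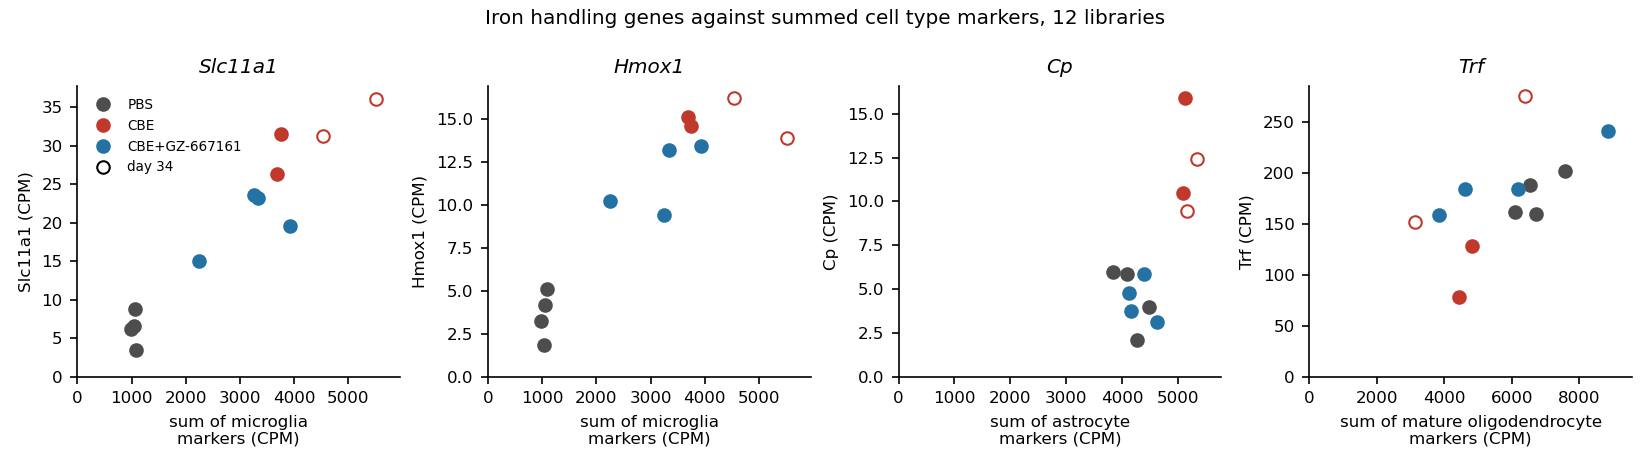
Levels of Slc11a1, Hmox1, Cp and Trf (CPM, vertical) against the summed level of cell type marker genes (CPM, horizontal) in the 12 libraries, with open points for day 34 and all axes from 0. Slc11a1 and Hmox1 are low in the 4 PBS libraries, where microglial markers sum to 984 to 1090 CPM, and Cp is above 9 CPM in the 4 CBE libraries, where astrocyte markers sum to 5100 to 5350 CPM.

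Microglial markers stood in the same order as Slc11a1 and Hmox1 at the level of group medians, 1050 CPM in PBS, 4140 in CBE and 3290 in CBE+GZ-667161. Markers of border macrophages and monocytes summed to 29.2 to 42.1, 150 to 239 and 104 to 194 CPM. The part of these cells in the values of Slc11a1, Hmox1 and ferritin was not tested. Within CBE, the summed microglial markers were at 4530 and 5510 CPM on day 34 and at 3690 and 3750 CPM on day 40. Of the 12 markers, 2 passed as lower on day 40. For day 40 over day 34, Slc11a1 differed by -0.25 ± 0.311 on the log2 scale (95% interval -0.91 to 0.41, adjusted p = 0.76, edgeR). Hmox1 differed by -0.05 ± 0.363 (95% interval -0.82 to 0.72, adjusted p = 0.97, edgeR). These intervals are wide, and whether the genes followed the markers between the days was not tested.

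Among the genes of export, Cp rose with CBE and was lower in CBE+GZ-667161 than in CBE. Cp (chromosome 3, 19957054 to 20009145, plus strand) was at 3.97, 5.96, 2.09 and 5.85 CPM in PBS, at 12.4, 9.44, 10.5 and 15.9 in CBE, and at 4.77, 5.85, 3.77 and 3.12 in CBE+GZ-667161. The 4 CBE libraries lay above the other 8, and PBS and CBE+GZ-667161 overlapped. The rise with CBE was 2.59-fold (log2 1.37 ± 0.32, adjusted p = 0.0099, edgeR), CBE+GZ-667161 was lower than CBE (log2 -1.44 ± 0.324, adjusted p = 0.04), and its difference from PBS was -0.06 ± 0.33 (95% interval -0.76 to 0.63, adjusted p = 0.97).

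The fall of Cp between the CBE groups passed in 11 of 23 alternatives, with log2 differences from -1.61 to -1.27 over all of them. It was lost without PBS replicate 2 (adjusted p = 0.054), without CBE replicate 2 (0.061), 4 (0.085) or 6 (0.15), and without CBE+GZ-667161 replicate 2 (0.079), 3 (0.076), 4 (0.13) or 5 (0.062). It was also lost without the day 40 libraries (0.25), with Xist as a term (0.14) and when only the CBE groups were fitted (0.055). The rise with CBE had an adjusted p of 0.11 without the day 40 libraries (edgeR). In the authors' deposited table, Cp was higher in CBE than in CBE+GZ-667161 with a log2 fold change of 1.45 (adjusted p = 0.0043). Astrocyte markers (10 genes) summed to 3840 to 4480 CPM in PBS, 5100 to 5350 in CBE and 4120 to 4620 in CBE+GZ-667161, with 6 of 10 higher in CBE than in PBS and 4 of 10 lower in CBE+GZ-667161 than in CBE. Choroid plexus markers (10 genes), of a tissue that also makes Cp, summed to 75.4 to 183, 138 to 583 and 82.4 to 414 CPM. The upper ends were single libraries, CBE replicate 4 (583) and CBE+GZ-667161 replicate 2 (414). Only 4 of the 10 were tested, and 0 passed in each of the 3 comparisons, with a median log2 fold change of -0.0587 for CBE against PBS. The part of these cells in the Cp values was not tested. Hps3 covers the 3' end of Cp on the opposite strand, over 13201 bases, and the sources used here do not state a strand setting for the counting, so reads of the pair may not be separable. Hps3 itself was at 8.12 ± 2.2, 9.1 ± 0.664 and 12.9 ± 3.25 CPM (n = 4 each), values that the overlap may affect as well. The part of the overlap in the Cp values was not tested.

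Slc40a1 (chromosome 1, 45908068 to 45926523, minus strand), the only known cellular iron exporter of mammals, was near the limit of the counts. It was at 3.97, 4.47, 0.838 and 2.15 CPM in PBS, at 2.16, 3.33, 0 and 2.65 in CBE, and at 4.77, 2.6, 2.93 and 2.67 in CBE+GZ-667161. The library at 0, CBE replicate 4, allows a level of up to 1.05 CPM by the limit of 3 counts. The groups overlapped, and the log2 fold change of CBE against PBS was -0.60 ± 0.624 (95% interval -1.92 to 0.72, adjusted p = 0.6, edgeR).

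**Figure D3:**
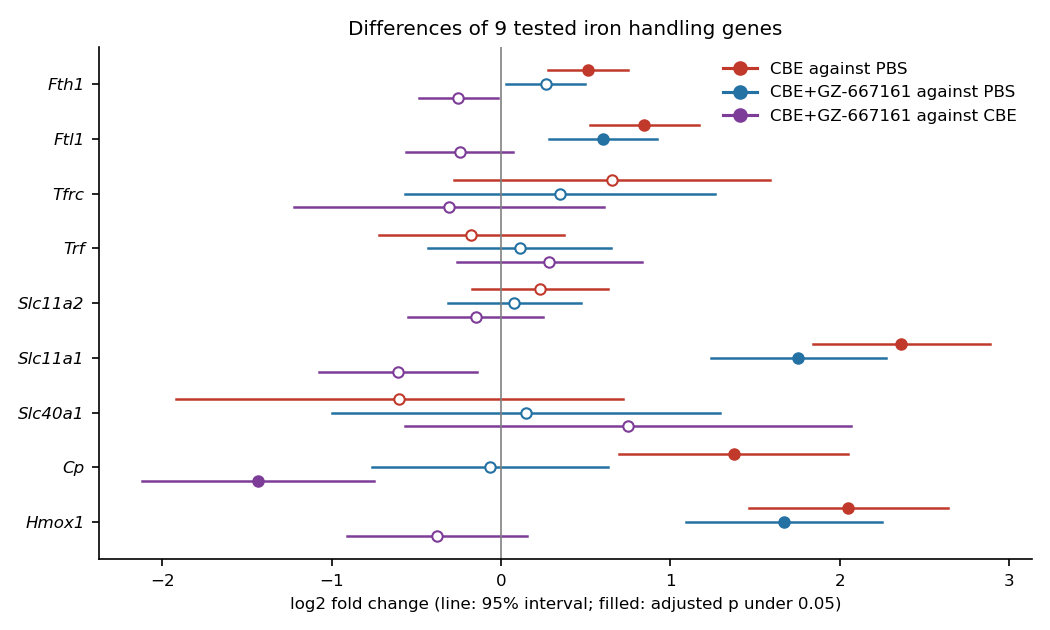
Log2 fold change of each of the 9 tested genes (points) with its 95% interval (lines) in the 3 comparisons, filled where the adjusted p is under 0.05. The 5 filled points of CBE against PBS lie at 0.51 to 2.36, and Cp is the filled point of CBE+GZ-667161 against CBE, at -1.44.

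Between the ages of the CBE libraries, none of the 9 genes passed with edgeR, although 3 had an unadjusted p under 0.05 (Fth1, Tfrc and Trf). Limma-voom called 0 and DESeq2 1, Trf. Of 13372 genes tested in this fit, 0.224% were called higher and 0.389% lower on day 40. These shares are at the adjusted threshold, and the share of all genes at an unadjusted p under 0.05 was not counted. Fth1 was higher on day 40 by 0.34 ± 0.127 (adjusted p = 0.22), and Tfrc by 1.44 ± 0.582 (adjusted p = 0.26). The days had 2 libraries each and differ in age and length of treatment, which cannot be told apart.

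The gene groups around these 10 were followed in lists of 57 other iron genes, of which 51 were in the table and 42 were tested. With CBE 6 of the 42 rose and none fell, with CBE+GZ-667161 2 rose against PBS and none fell, and 3 were lower and none higher in CBE+GZ-667161 than in CBE. Over all tested genes the shares were 6.95% higher with CBE, 3.11% higher with CBE+GZ-667161 against PBS and 0.832% lower between the CBE groups, so the 2 of 42 lie near the share of all genes. Genes with few counts in PBS entered these counts only where another group raised them past the filter. The lists were also chosen with earlier results of these data known, so the counts describe the lists and do not test them. The medians of the 42 genes were 0.0335, 0.0448 and -0.0612 on the log2 scale. Of the 6 rises with CBE, 4 were among the 11 tested genes of uptake and scavenging, 1 among 2 of storage and iron chaperones and 1 among 11 of mitochondrial iron and iron-sulfur clusters. No call was made among 6 regulators and 12 genes of heme synthesis, transport and breakdown with edgeR, DESeq2 or limma-voom, which for lists of this size is near the shares over all genes. At an unadjusted p under 0.05 (edgeR), 1, 1 and 0 of the 6 regulators and 0, 2 and 3 of the 12 heme genes were counted with CBE, with CBE+GZ-667161 against PBS and between the CBE groups. The share of all genes at this unadjusted threshold was not counted, so whether these counts are unusual cannot be read from them. Heph and 8 other listed genes in the table had too few counts for the test.

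**Figure D4:**
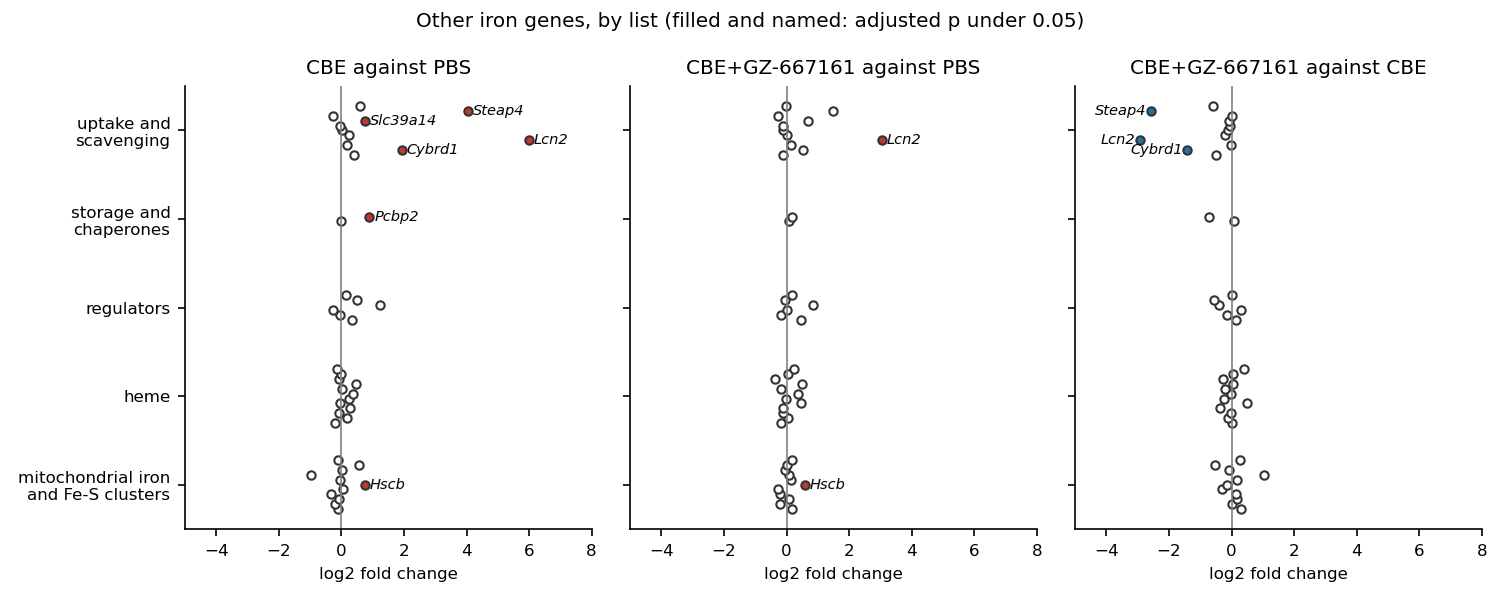
Log2 fold changes (horizontal) of 42 other iron genes by list (vertical) in the 3 comparisons of treatments, filled and named where the adjusted p is under 0.05. Lcn2, Steap4 and Cybrd1 lie to the right with CBE against PBS and to the left with CBE+GZ-667161 against CBE, and most other genes lie near 0.

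Lcn2, a secreted protein that binds bacterial siderophores and so withholds iron, was at 2.92 to 4.47 CPM in PBS. It was at 116 and 87.2 CPM in the day 34 and 366 and 326 CPM in the day 40 CBE libraries, and at 18.9, 13.0, 15.5 and 81.1 CPM in CBE+GZ-667161. The groups did not overlap, and replicate 5 stood above the other CBE+GZ-667161 libraries. The log2 fold change was 5.99 ± 0.657 with CBE (adjusted p = 9.8e-06, edgeR), 3.06 ± 0.676 with CBE+GZ-667161 against PBS (adjusted p = 0.014) and -2.92 ± 0.526 between the CBE groups (adjusted p = 0.017). Without replicate 5 of CBE+GZ-667161 the last 2 were 2.14 (adjusted p = 0.032) and -3.84 (adjusted p = 0.00065). Without the day 34 libraries the rise with CBE was 6.60, and without the day 40 libraries 4.85. The call of CBE+GZ-667161 against PBS was lost without PBS replicate 5 (adjusted p = 0.051) and with limma-voom (0.18). The call between the CBE groups was lost without CBE replicate 4 (0.065) or 6 (0.058) and without CBE+GZ-667161 replicate 3 (0.056) or 4 (0.085). It was also lost without the day 40 libraries (0.22) and with Xist as a term (0.12). When only the CBE groups were fitted it was at the threshold, with an adjusted p of 0.05 as rounded.

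Steap4, a metalloreductase, had 0 to 1.23 CPM in PBS (15 counts in all), 8.33 to 22.5 CPM in CBE and 0.433 to 5.79 CPM in CBE+GZ-667161. Steap4 passed the filter on low counts through the CBE libraries, with no PBS library above its limit, so a difference was built into its being tested, and its fitted values are a description: 4.05 ± 0.605 on the log2 scale with CBE (adjusted p = 0.00023, edgeR) and -2.57 ± 0.539 between the CBE groups (adjusted p = 0.032). Cybrd1, a ferric reductase, went from 3.35 ± 0.559 to 12.7 ± 0.574 CPM with CBE and was at 4.93 ± 1.85 CPM with CBE+GZ-667161 (SD, n = 4). Its log2 fold changes were 1.93 ± 0.291 (adjusted p = 0.00025, edgeR) and, between the CBE groups, -1.41 ± 0.282 (adjusted p = 0.026). For both genes the CBE libraries lay above all others. Both calls between the CBE groups were lost without CBE replicate 4 or 6, without CBE+GZ-667161 replicate 2, 3 or 4, without the day 40 libraries, with Xist as a term and when only the CBE groups were fitted. The adjusted p was then 0.055 to 0.26 for Steap4 and 0.055 to 0.17 for Cybrd1, and the rise of Cybrd1 with CBE passed in every alternative run.

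Of the other listed genes, Slc39a14, a transporter of non-transferrin iron, zinc and manganese, was at 13.9 ± 3.76, 23.6 ± 1.13 and 22.3 ± 2.27 CPM. Its rise with CBE was 0.76 ± 0.202 (adjusted p = 0.022, edgeR). That call was lost without the day 34 libraries (0.067) or the day 40 libraries (0.1). Without CBE replicate 4 the adjusted p was 0.05 as rounded, which lies at the threshold. With CBE+GZ-667161 the log2 fold change against PBS was 0.68 (adjusted p = 0.076, edgeR; 0.049 with DESeq2). Pcbp2, which delivers iron to ferritin and also binds RNA, was at 9.35 ± 1.07, 17.4 ± 3.64 and 11.1 ± 4.52 CPM and rose with CBE by 0.90 ± 0.256 (adjusted p = 0.032). That call was lost without PBS replicate 2 (0.06), 3 (0.072) or 4 (0.073), without CBE replicate 4 (0.12) and without the day 40 libraries (0.23). Without CBE replicate 2 it was at the threshold, with an adjusted p of 0.05 as rounded. Without CBE+GZ-667161 replicate 5, Pcbp2 was lower in CBE+GZ-667161 than in CBE (-0.98, adjusted p = 0.039). Hscb, a chaperone of iron-sulfur cluster transfer, was at 15.8 ± 2.09, 26.8 ± 1.7 and 24.1 ± 2.77 CPM. It rose with CBE by 0.75 ± 0.161 (adjusted p = 0.0053) in all alternatives, and with CBE+GZ-667161 by 0.60 ± 0.157 (adjusted p = 0.043), a call that held in 8 of 21 alternatives. Among single libraries, it was lost without PBS replicate 2, 3 or 4, without CBE replicate 2 or 6 and without each CBE+GZ-667161 replicate (0.055 to 0.14).

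With all libraries, the genes that sense iron and control the elements shown above did not pass in these comparisons. Aco1, which encodes iron regulatory protein 1, was at 23.2 ± 2.35, 29.5 ± 4.73 and 32.1 ± 5.78 CPM (log2 0.34 with CBE, adjusted p = 0.23, and 0.47 with CBE+GZ-667161, adjusted p = 0.17, edgeR). Ireb2, for iron regulatory protein 2, was at 2.82 ± 0.541, 3.89 ± 1.04 and 2.73 ± 0.828 CPM. Fbxl5, which marks iron regulatory protein 2 for breakdown when iron is plentiful, was at 71.5 ± 8.64, 60.0 ± 15.3 and 72.6 ± 5.27 CPM, with 48.0 CPM in both day 40 CBE libraries. Its log2 fold change with CBE was -0.27 (adjusted p = 0.32), and -0.58 without the day 34 libraries (adjusted p = 0.02). Without those libraries Fbxl5 was also higher in CBE+GZ-667161 than in CBE, by 0.60 (adjusted p = 0.036), beside 0.29 with all libraries (adjusted p = 0.38, edgeR). Ncoa4, the receptor that takes ferritin to lysosomes, had 47, 27 and 24 counts in the 3 groups and was not tested.

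The pattern of each gene over the 12 libraries was set beside all tested genes by Pearson's r of log2 CPM, and the pair of genes most like it is given as a description. Libraries of a group share treatment, so these values mostly carry the group differences. Slc11a1 was most like Havcr2 (r = 0.979) and Ptpn18 (0.978), and Hmox1 most like Hvcn1 (0.974) and Lcp1 (0.969). Ftl1 was most like Srgn (0.961) and Rps16 (0.956), and Fth1 most like Rps13 (0.945) and Ezr (0.942). Cp was most like Elac1 (0.938) and Ttc38 (0.927). Of the genes that passed in no comparison of treatments with all libraries, Trf was most like Rnf13 (0.905) and Fam57a (0.895). Also of these genes, Slc40a1 was most like Tmem136 (0.934) and Col1a2 (0.913), and Tfrc most like Cluh (0.874) and Ccdc107 (0.872). Slc11a2 was most like Gm11451 (0.898) and Gm4799 (0.88).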

How the data were processed

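The authors deposited raw counts per gene symbol for the 12 whole-brain libraries, made with a bulk form of MARS-seq per the labels' protocols. The submitters' processing notes name mm10 and the tools HISAT 0.1.6, HTSeq, cutadapt and DESeq2. The sources used here do not give their role or order, the annotation, the handling of molecular identifiers or the use of strand. The authors' deposited table of comparisons gives log2 fold changes and adjusted p-values, and was read only where it is named. Of 16505 entries, 23 carried a date in place of a symbol (0.266% to 0.347% of a library's counts) and were left out. Genes were kept with filterByExpr (minimum count 10, total 15), scaled by TMM and tested with edgeR 4.0.16 (glmQLFit, glmQLFTest) in one fit of 3 groups, or of 4 groups for the CBE ages. P-values were adjusted by Benjamini-Hochberg over all tested genes with a threshold of 0.05. Replicates differed by more than sampling noise (chi-square per degree of freedom 3.29 to 12.2), so none were merged. Lower totals widen the error of genes with few counts.

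The genes and lists were chosen with earlier results of these data known. Named were all 10 genes, Aco1, Ireb2, Fbxl5 and Ncoa4, up to 4 passing genes of smallest p from each list, and the 2 genes most like each tested gene (log2 CPM, prior count 2); Hps3 and Gm20425 were named because they overlap the 3' end of a gene. Alternatives were RLE and upper-quartile scaling, no filter, a minimum count of 30, DESeq2 1.42.0, limma-voom (limma 3.58.1), only the groups compared, either CBE age left out, a replicate block, an Xist term and each library left out. The steps were tested on simulated data. Sequences and positions are from GENCODE vM21 and RefSeq. Software was R 4.3.3, Python 3.11.15 and matplotlib 3.10.9.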

Additional observations from a re-analysis of the deposited data

Results flagged for a closer look

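In CBE+GZ-667161, Slc40a1 in replicate 2 was at 4.77 CPM, while the other 3 libraries lay between 2.6 and 2.93 CPM, a gap large enough for Dixon's test at the 95% level. It was 1 of 27 groups of 4 libraries tested, and chance sets apart about 1 in 20.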

How the results depend on the processing

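Over 36 values of the 9 tested genes, 727 of 754 alternatives left the call as it was, 23 lost a call and 4 gained one. Most of the 36 values were not called to begin with, so the 727 are mostly uncalled values that stayed uncalled. The losses were of Cp between the CBE groups (12 of 23 alternatives) and Ftl1 with CBE+GZ-667161 against PBS (8 of 21). The rest were of Cp (2 of 23) and Fth1 (1 of 23) with CBE against PBS. DESeq2 gave no adjusted p for Slc40a1 between the days, which is not counted. No called value turned sign, while some uncalled values did. The rises of Slc11a1 and Hmox1 against PBS and of Ftl1 with CBE were kept in all alternatives run. For the counts of genes past the threshold (5 of the 9 genes and 1387 of all genes for CBE against PBS, 3 and 435 for CBE+GZ-667161 against PBS, 1 of the 9 and, of all genes, 56 higher and 105 lower between the CBE groups, and 0 and 82 between the CBE days), DESeq2 called 489 genes between the CBE groups and, between the days, 240 genes and 1 of the 9. Limma-voom called 19 genes between the days. Between the CBE groups, fitting only those groups called 31 genes and 0 of the 9, leaving out day 34 called 692 and 3, leaving out day 40 called 2 and 0, and an Xist term called 67 and 0. Leaving out day 40 gave 751 genes and 3 of the 9 for CBE against PBS. With 1 library left out, 0 to 1 of the 9 and 5 to 269 genes were called between the CBE groups, and 0 to 104 genes between the days. The cause of these changes was not tested; fits with fewer libraries have fewer degrees of freedom. Where 1 library stood for an age, it was assumed to vary like the other groups. Depth limits Slc40a1, Tfrc, Cp, Hmox1 and Steap3 most, which had the fewest counts.

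Replicate numbers were not taken as pairs: of 10 same-numbered pairs, 1 had a correlation of deviations over 0.1 (-0.0783 to 0.24). With the replicate block, in which CBE replicate 6 has no partner, 82 genes and 0 of the 9 were called between the CBE groups, 947 genes and 4 of the 9 for CBE against PBS, and 404 genes and 2 of the 9 for CBE+GZ-667161 against PBS. Cp with CBE (1.30, adjusted p = 0.059), Cp between the CBE groups (-1.32, 0.12) and Ftl1 with CBE+GZ-667161 (0.59, 0.059) lost their calls (edgeR), as did Cybrd1 between the CBE groups (-1.51, 0.059) and Hscb with CBE+GZ-667161 (0.61, 0.073).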
